A study of Mus musculus with 12 samples.

Results

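The 7 transcripts described here, 4933409K07Rik, A430078G23Rik, Gm10845, Gm11127, Gm19757, Gm4262 and Psg23, were selected on their levels in Dnmt1 CKO (conditional knockout) libraries: each was more than 3 times higher in every Dnmt1 CKO library than in any of the 9 other libraries, and above 1 FPKM there. FPKM is the number of sequenced fragments divided by transcript length and scaled by the number of mapped fragments, so it is a level per length. The 7 symbols are among 23354 in the whole table, and an eighth symbol, the Y-linked gene Uba1y, also met both conditions but was not in the chosen set. The choice rests on the Dnmt1 CKO values and on an upper bound for the 9 other libraries. The size of that increase is therefore a description and carries no test.

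The data are RNA-seq profiles of cerebral cortex taken from 12 C57BL/6 mice at postnatal day 16, with 3 mice in each of 4 groups. The Dnmt1 CKO mice carried Olig1cre/+ and Dnmt1flox/flox and their controls Olig1+/+ and Dnmt1flox/flox. The Dnmt3a CKO mice carried Olig1cre/+ and Dnmt3aflox/flox and their controls Olig1+/+ and Dnmt3aflox/flox. The cre recombinase stands at the Olig1 locus and acts in the oligodendrocyte lineage, so in whole cortex most cells keep both enzymes, and every CKO mouse also has 1 altered Olig1 allele that no control has. In such bulk samples a change in the number of cells of a type and a change of RNA per cell cannot be told apart.

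Dnmt1 is the maintenance methyltransferase, which copies methylation of CG dinucleotides (CpGs) to the new strand when DNA is replicated, whereas Dnmt3a can methylate sites anew. Methylation is known to help keep germline genes, placental genes and the long terminal repeats of endogenous retroviruses, such as intracisternal A particles, silent in somatic cells. Cells that divide without Dnmt1 lose methylation step by step, and transcripts that start in, run through or end in retroviral repeats are known to appear in such cells.

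The sequences show what the annotated transcripts share. RefSeq windows of the region before a gene's start (GRCm38.p6) were found for 5 of the 7 transcripts. The window of Gm19757 held a 20-base word that recurs in 22 of 32851 windows (0.067%), and no other word of that window was found in more. The 250 bases before the start of Gm19757 (chr6:105492669-105492918, minus strand) are shown with that word in capitals.
Gm19757: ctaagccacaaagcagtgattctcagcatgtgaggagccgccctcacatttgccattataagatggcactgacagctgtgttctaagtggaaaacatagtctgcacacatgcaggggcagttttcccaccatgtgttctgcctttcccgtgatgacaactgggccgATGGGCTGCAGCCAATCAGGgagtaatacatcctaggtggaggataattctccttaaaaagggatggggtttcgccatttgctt

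The same word was then looked for on both strands of all annotated transcripts, and it was found in 5 of the 6 members with a GENCODE M21 transcript. The sixth, Gm19757, has it 84 bases before its start. Across the annotation 81 of 55341 genes (0.146%) hold the word, and among the non-member genes tested 27 of 13206 (0.204%) do. The word and its 5 neighbouring bases on each side are shown for each member, in the direction of the word, with the word in capitals.
Gm19757: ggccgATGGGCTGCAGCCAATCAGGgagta
A430078G23Rik: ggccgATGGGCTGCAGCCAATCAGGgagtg
Gm10845: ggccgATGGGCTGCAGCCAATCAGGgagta
Gm11127: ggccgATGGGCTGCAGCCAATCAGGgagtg
Gm4262: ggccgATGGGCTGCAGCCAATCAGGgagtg
Psg23: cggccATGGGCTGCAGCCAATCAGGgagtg

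The word lay in the last exon of each of these 5 transcripts. In A430078G23Rik it stood at chr8:3390159-3390178, in the untranslated part of exon 11 of 11. In Gm11127 it stood at chr17:36055965-36055984, in the untranslated part of exon 6 of 6, and in Psg23 at chr7:18606605-18606624, in the untranslated part of exon 5 of 5. Gm10845 held it at 2 places of exon 3 of 3, chr14:79860707-79860726 and chr14:79862960-79862979, and Gm4262 on the opposite strand of exon 3 of 3, at chr16:11013629-11013648. In A430078G23Rik, Gm11127 and Psg23 the annotated transcript ended 121, 149 and 262 bases after the word. No annotation of repeats was used, so the words are not assigned to a repeat family here. For 4933409K07Rik, which RefSeq lists as a transcribed pseudogene and GENCODE M21 does not list, no transcript sequence was used.

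The non-coding transcripts come first. Gm10845 is a lincRNA, a long intergenic non-coding RNA, on chr14:79860521-79869176 (minus strand). It had 77.6, 79.9 and 77.6 FPKM in Dnmt1 CKO replicates 1 to 3 and 17.0, 20.5 and 22.4 FPKM in the Dnmt1 Control libraries. In the Dnmt3a Control libraries it had 21.03, 19.8 and 21.3 FPKM and in the Dnmt3a CKO libraries 18.6, 17.7 and 22.5 FPKM. It was thus well expressed in every group and the smallest of the 7 in relative terms, at 3.93 times the mean of the Dnmt1 Control libraries. Its lowest Dnmt1 CKO library was 3.45 times the highest of the other 9, just inside the limit of the rule.

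Gm19757 is a lincRNA of 3 exons on chr6:105481266-105492668 (minus strand). It had 44.7, 46.4 and 44.2 FPKM in Dnmt1 CKO and 5.17, 6.18 and 6.95 FPKM in Dnmt1 Control. The Dnmt3a Control libraries had 7.39, 6.46 and 6.87 FPKM and the Dnmt3a CKO libraries 6.30, 5.89 and 7.25 FPKM. The mean of the Dnmt1 CKO libraries was 7.39 times that of their controls, and all 9 other libraries lay within a narrow band.

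Gm4262 is a lincRNA of 3 exons on chr16:11008898-11015186 (plus strand), and the gene Litaf overlaps it on the opposite strand. It had 21.4, 23.8 and 20.1 FPKM in Dnmt1 CKO and 1.67, 1.69 and 2.32 FPKM in Dnmt1 Control. It had 2.09, 1.78 and 1.78 FPKM in Dnmt3a Control and 1.54, 1.66 and 2.26 FPKM in Dnmt3a CKO. The ratio of means in the Dnmt1 line was 11.5, and no Dnmt1 CKO library came near the other 9.

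The library kit is not stated to keep the strand, so reads of Gm4262 and of Litaf, a regulator of endosomal sorting, cannot be told apart where they overlap. Litaf itself had a mean of 3.80 FPKM in the Dnmt1 controls and 2.89 FPKM in the Dnmt1 CKO libraries (log2 fold change -0.40 ± 0.13 SE, limma, adjusted p = 0.24), a value below 0 that did not pass the threshold.

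4933409K07Rik had the highest level of the 7 in Dnmt1 CKO. The table holds 4 different rows under this symbol. In 1 of them the Dnmt1 CKO libraries had 148, 159 and 138 FPKM and the Dnmt1 Control libraries 14.3, 17.0 and 18.2 FPKM, a ratio of means of 8.98. In the same row the Dnmt3a Control libraries had 17.6, 16.6 and 17.8 FPKM and the Dnmt3a CKO libraries 16.3, 14.3 and 19.11 FPKM. A second row was nearly the same (ratio of means 8.58), and which copy of the locus each row stands for is not given. The other 2 rows were near 0 in every library, were below the level needed for a test and did not meet the rule.

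Among the transcripts annotated as protein-coding, Gm11127 is a predicted relative of the major histocompatibility complex class I genes, which present peptides at the cell surface, on chr17:36055816-36058371 (minus strand). It had 23.7, 24.95 and 20.8 FPKM in Dnmt1 CKO and 1.56, 1.54 and 1.81 FPKM in Dnmt1 Control. It had 1.75, 1.49 and 1.66 FPKM in Dnmt3a Control and 1.70, 1.24 and 1.88 FPKM in Dnmt3a CKO. Its ratio of means in the Dnmt1 line, 14.2, was the highest of the 7.

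Psg23 is a pregnancy-specific glycoprotein, a secreted protein of the placenta, on chr7:18606343-18616501 (minus strand). It had 15.6, 16.8 and 14.7 FPKM in Dnmt1 CKO and 1.504, 1.42 and 1.74 FPKM in Dnmt1 Control. In the Dnmt3a line it had 1.92, 1.83 and 1.85 FPKM in the controls and 1.92, 1.59 and 1.73 FPKM in the CKO libraries. The ratio of means in the Dnmt1 line was 10.095.

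A430078G23Rik lies on chr8:3353415-3390299 (plus strand). RefSeq gives the name as a synonym of Arhgef18, whereas GENCODE M21 keeps them as 2 genes. It had 15.9, 17.8 and 14.99 FPKM in Dnmt1 CKO and 2.52, 2.58 and 2.70 FPKM in Dnmt1 Control. The Dnmt3a Control libraries had 2.94, 2.04 and 2.66 FPKM and the Dnmt3a CKO libraries 2.38, 1.97 and 2.71 FPKM, and the ratio of means in the Dnmt1 line was 6.26.

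**Figure D1:**
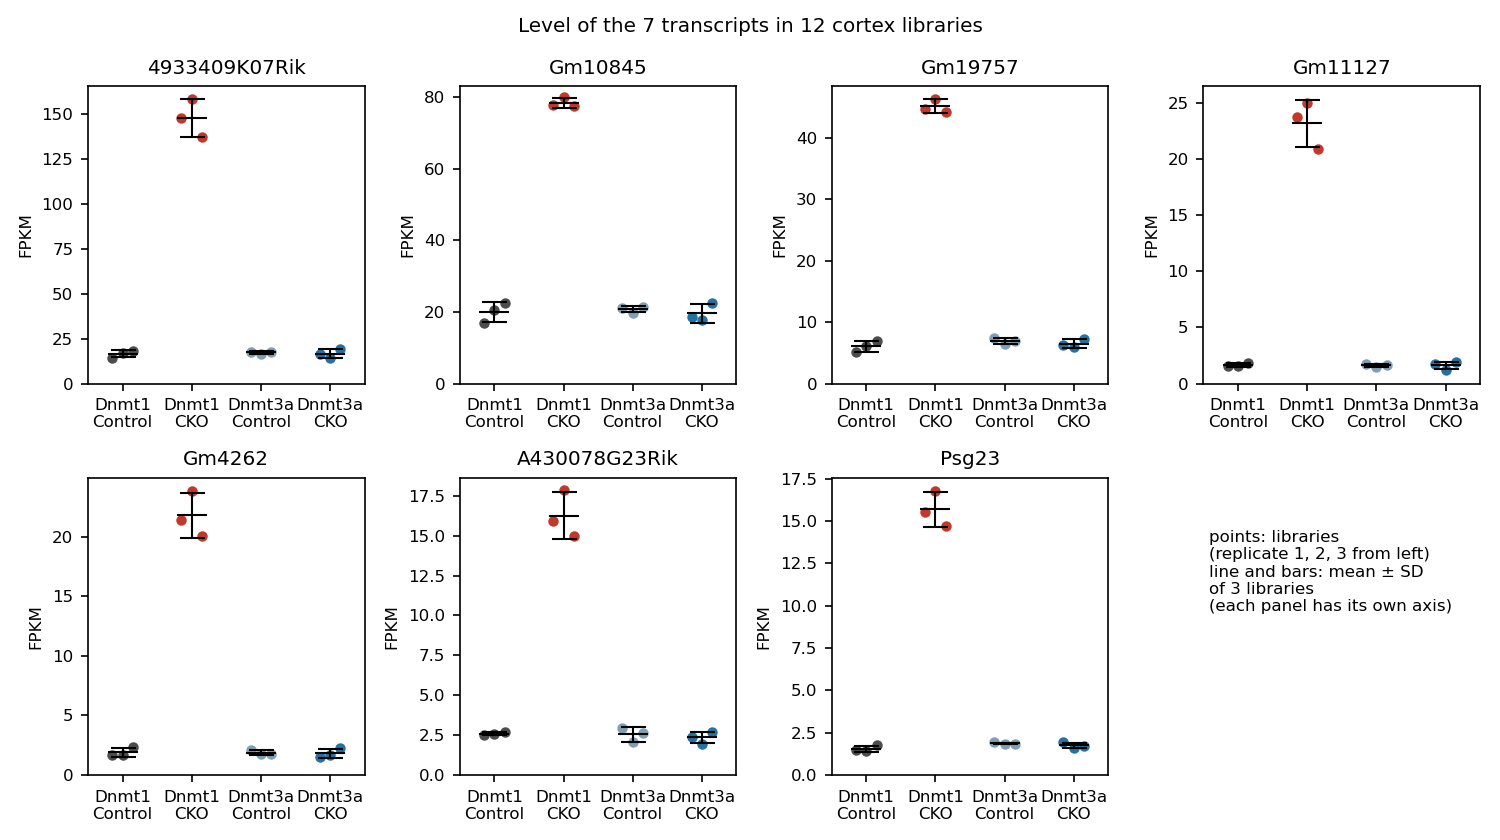
Level in FPKM (linear axis from 0, a different scale in each panel) of the 7 transcripts in the 12 libraries, by group; points are libraries and the line with bars is the mean ± SD of 3 libraries. The 3 Dnmt1 CKO points stand apart in each panel, as the rule required, and the other 9 lie together.

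The order of the levels differed between Dnmt1 CKO and the other groups. In Dnmt1 CKO the means ran from 4933409K07Rik (148 ± 10.5 FPKM, SD, n = 3) through Gm10845 (78.4 ± 1.33), Gm19757 (45.1 ± 1.12), Gm11127 (23.2 ± 2.11), Gm4262 (21.8 ± 1.90) and A430078G23Rik (16.3 ± 1.46) to Psg23 (15.7 ± 1.04). The ranges of Gm11127 and Gm4262 overlapped, as did those of A430078G23Rik and Psg23, although within each of the 3 libraries Gm11127 was above Gm4262 and A430078G23Rik above Psg23. In Dnmt1 Control, Gm10845 (19.97 ± 2.71 FPKM) was above 4933409K07Rik (16.5 ± 1.95 FPKM) in each of the 3 libraries, although their ranges overlapped. The gain in level over the Dnmt1 Control mean ran from 13.7 FPKM for A430078G23Rik to 132 FPKM for 4933409K07Rik.

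Just outside the rule were Matn1, C4b, Oasl2, Dmp1 and 4921508A21Rik. Their lowest Dnmt1 CKO library was 2.43, 2.01, 1.97, 1.94 and 1.81 times the highest of the other 9, against 3.45 for Gm10845 and 11.1 for Gm11127. Uba1y had 1.37 to 1.56 FPKM in Dnmt1 CKO and 0.0839 to 0.254 FPKM elsewhere. By Pearson correlation of log2(FPKM + 0.1) with the mean of the standardised member rows over the 12 libraries, the 5 most similar genes were Bckdhb (r = 0.979), Rtp4 (0.977), 4921508A21Rik (0.967), 9030025P20Rik (0.967) and Suv39h2 (0.962). These coefficients are a description over 12 libraries that include the 3 used by the rule. Bckdhb, a subunit of the enzyme complex that breaks down branched-chain amino acids, had 13.6 ± 1.07 FPKM in Dnmt1 Control libraries and 24.7 ± 0.289 FPKM in those of Dnmt1 CKO. Suv39h2, a histone methyltransferase, had 1.21 ± 0.0436 and 2.39 ± 0.419 FPKM.

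In Dnmt3a CKO no change of the 7 transcripts was detected. The rule kept every Dnmt3a library more than 3 times below the lowest Dnmt1 CKO library. A rise as large as that of Dnmt1 CKO could therefore not appear among these 7, and the test could show only smaller rises or falls. Their log2 fold changes in Dnmt3a CKO against Dnmt3a Control were -0.10 to -0.04, with adjusted p-values from 0.81 to 0.97 (limma on log2(FPKM + 0.1), 3 against 3 libraries, Benjamini-Hochberg adjustment over all rows tested). None was called at 10% FDR, where 2 of 14075 symbols (0.0142%) were. At an unadjusted p under 0.05 there were 0 of the 7 and 1036 in all. The 95% intervals of the log2 fold changes lay between -0.53 and 0.35 for all 7, so changes within these bounds could not be seen with 3 libraries a group. The Dnmt3a groups overlapped for all 7, where in 7.33% of rows the CKO libraries all lay above the controls and in 5.43% all below. The 2 genes called, Amd1 and Mir3091, are named after their values were seen.

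Dnmt3a itself stood at 16.9 FPKM in the library labelled as Dnmt3a Control replicate 2, nearer to the Dnmt3a CKO libraries (13.6, 14.2 and 15.4 FPKM) than to the other controls (31.1 and 28.7 FPKM). Without it the log2 fold changes of the member rows were -0.25 to -0.09, with adjusted p-values from 0.78 to 0.93.

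Between the controls of the lines no difference was called. Against Dnmt3a Control, the Dnmt1 Control libraries differed by -0.26 (Psg23) to 0.04 (A430078G23Rik) on the log2 scale, with adjusted p-values of 0.64 and above. No member was called, against 1 of 14075 symbols (0.00710%), Snora43, a small nucleolar RNA named after its values were seen. Psg23 came nearest, with an unadjusted p of 0.032, a 95% interval of -0.48 to -0.03 and an adjusted p of 0.64. Its Dnmt1 Control libraries (1.42 to 1.74 FPKM) all lay below its Dnmt3a Control libraries (1.83 to 1.92 FPKM). This was so in 3.98% of the rows tested, and the reverse in 8.59%.

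**Figure D2:**
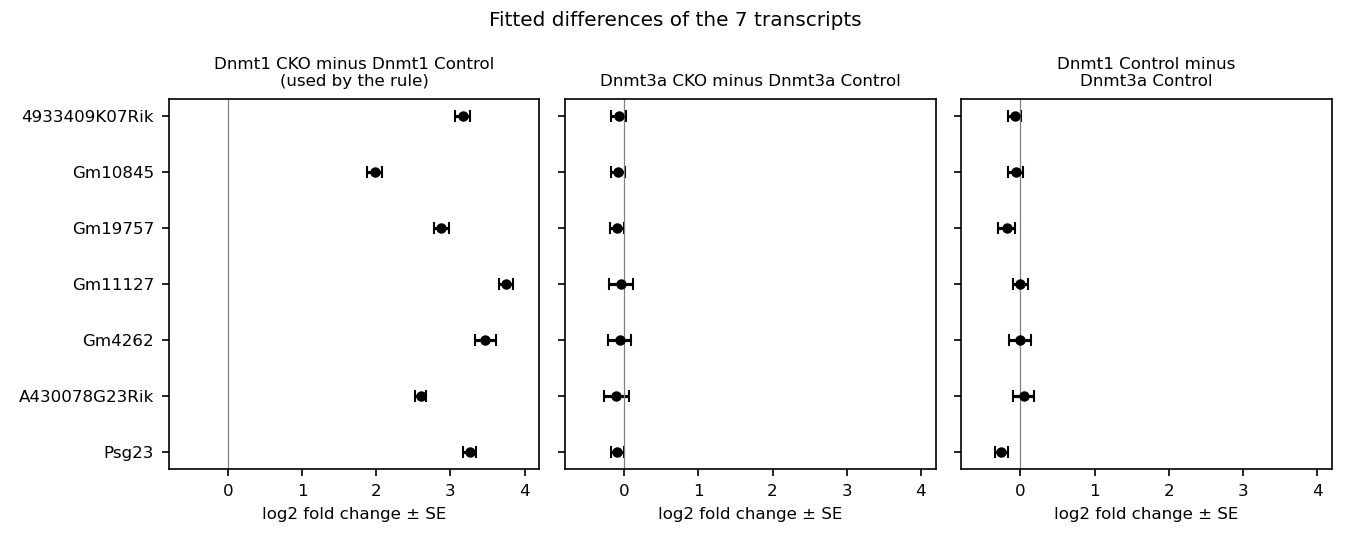
Fitted log2 fold change ± SE of the 7 transcripts (1 row each; horizontal axis in log2 units) in 3 comparisons of 3 against 3 libraries. The Dnmt1 CKO differences, which the rule used, lie between 1.98 and 3.74, and those of Dnmt3a CKO and of the control lines between -0.26 and 0.04.

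The transcripts also moved together between libraries of the same group. In Dnmt1 CKO replicate 2 all 7 had their highest value and in replicate 3 all 7 had their lowest. In Dnmt1 Control replicate 3 all 7 had their highest value of that group, and in Dnmt3a CKO replicate 3 this held for 6. In Dnmt3a Control, replicate 1 had the highest value of 5 and replicate 3 that of 2. Over the 9 libraries that are not Dnmt1 CKO, the deviations from the group means correlated positively in 21 of 21 member pairs, with a median r of 0.689 and a range of 0.347 to 0.970. With all other rows tested, the median r of each member lay between -0.31 (Gm19757) and -0.17 (Psg23). Gm10845 and 4933409K07Rik gave the highest r among the member pairs and Gm10845 and Psg23 the lowest. These values describe 9 libraries whose totals and RNA are shared by all pairs, and no test was made.

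Transcripts that mark sex moved with some of these values, but in Dnmt3a Control replicate 3 only 2 of the 7 were highest. Xist, which is made from the inactive X chromosome, had 46.2 to 49.4 FPKM in replicate 3 of Dnmt1 Control, Dnmt3a Control and Dnmt3a CKO, where the Y-linked gene Ddx3y had at most 0.0365 FPKM. In the 9 other libraries Ddx3y had 10.2 to 12.8 FPKM, the 3 Dnmt1 CKO libraries included. In Dnmt1 CKO, Xist had 1.69, 1.80 and 1.85 FPKM, against 0.0306 to 0.0853 FPKM in the other 6 libraries with Ddx3y. Without Dnmt1 Control replicate 3, so that all libraries of the Dnmt1 comparison had Ddx3y, the log2 fold changes of the 7 in Dnmt1 CKO were 2.06 for Gm10845, 2.62 for A430078G23Rik, 2.97 for Gm19757, 3.23 for 4933409K07Rik, 3.34 for Psg23, 3.62 for Gm4262 and 3.81 for Gm11127. Dnmt1 Control replicate 3 had the highest control value of all 7, so leaving it out could only raise these differences. The part of sex in the members' levels was not tested.

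**Figure D3:**
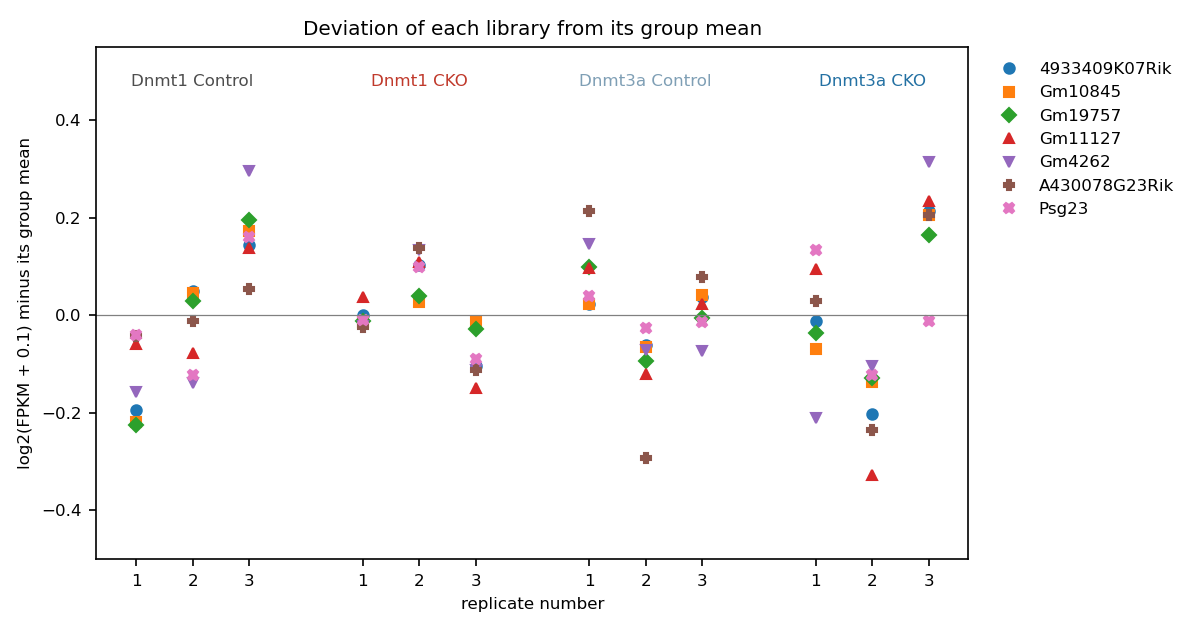
Deviation of log2(FPKM + 0.1) from its group mean (vertical axis) for the 7 transcripts, by replicate number within each of the 4 groups. All symbols of Dnmt1 Control replicate 3 lie above 0 and all of Dnmt1 CKO replicate 3 below, and most members move together within a group.

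Genes around the members were examined within 200 kb on either side. Of 135 annotated neighbours of the 6 annotated members, 56 were in the table and 36 could be tested. In Dnmt1 CKO 1 of the 36 was called higher and 1 lower, against 0.845% and 2.30% of all symbols, and their median log2 fold change was -0.01 against -0.02 over all rows. In all, 3.15% of symbols were called in this comparison.

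Gm7030, another class I-like gene 51.3 kb after Gm11127, was higher: 0.405 ± 0.0608 FPKM in Dnmt1 Control libraries and 0.859 ± 0.149 FPKM in those of Dnmt1 CKO (log2 fold change 0.92, adjusted p = 0.039). It did not pass without Dnmt1 Control replicate 1 (adjusted p = 0.12), Dnmt1 Control replicate 2 (0.16) or Dnmt1 CKO replicate 3 (0.13). It shares 495 of the 1295 words of 50 bases in Gm11127's transcript, so reads of one can be counted for the other. 4930452G13Rik, 146 kb before Gm10845, was lower (log2 fold change -1.09, adjusted p = 0.070), and this call was lost when Dnmt1 Control replicate 2 or 3, or Dnmt1 CKO replicate 1 or 2, was left out (adjusted p = 0.16 to 0.24).

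Other than Gm7030, the nearest tested gene after Gm11127, the nearest tested neighbours did not pass the threshold. Arhgef18, 2.71 kb after A430078G23Rik on the same strand, had 7.74 ± 0.173 FPKM in Dnmt1 Control libraries and 8.29 ± 0.110 FPKM in those of Dnmt1 CKO (log2 fold change 0.10, adjusted p = 0.31). Its Dnmt1 CKO libraries all lay above the controls, as in 6.38% of all rows. On the other side Insr, the insulin receptor 73.8 kb before A430078G23Rik, gave 0.06 (adjusted p = 0.62). H2-T22, 13.1 kb before Gm11127, gave 0.18 (adjusted p = 0.83), A930015D03Rik 0.08 (0.95) and H2-T23 0.48 (0.19). H2-T23 passed in 2 other fits, with adjusted p = 0.092 in the robust form of the test and 0.038 when all 12 libraries entered 1 model.

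The same held around the other members. Snn, 45.8 kb after Gm4262, gave a log2 fold change of -0.00 (adjusted p = 0.99), and Rmi2, 116 kb before it, gave -0.08 (0.81). Pcdh8, a protocadherin 89.2 kb before Gm10845, gave -0.05 (0.74), and Olfm4, 115 kb after it, 0.09 (0.85). Cntn4, an axonal cell adhesion molecule 185 kb after Gm19757, gave 0.05 (0.83). Psg28, 174 kb before Psg23, gave 0.26 (0.57).

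**Figure D4:**
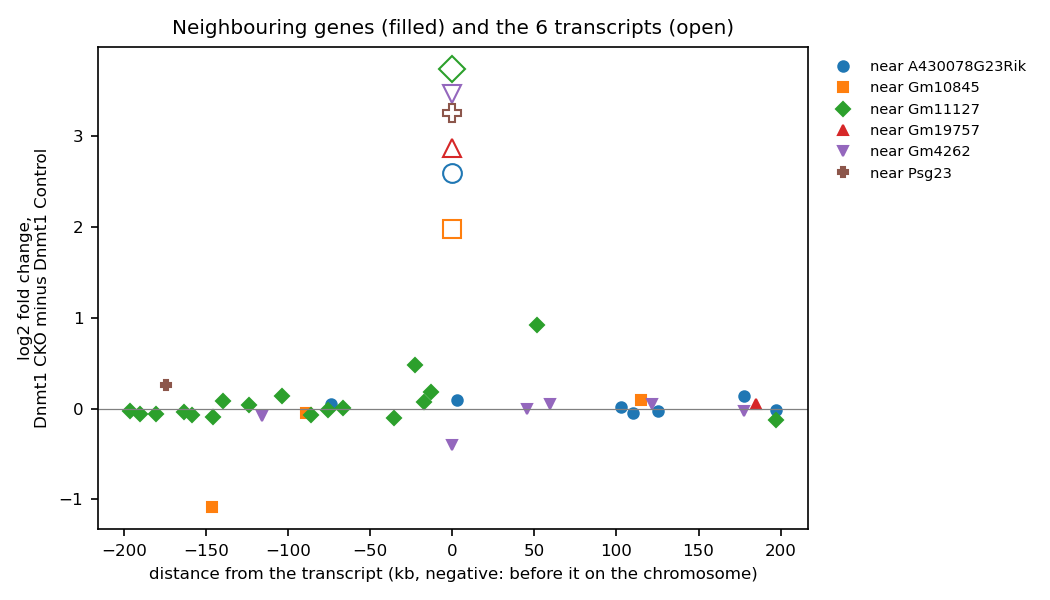
Log2 fold change in Dnmt1 CKO against Dnmt1 Control (vertical axis) of the 36 tested genes within 200 kb of 6 members, by distance from the member in kb (0 for an overlapping gene); open symbols mark the members. Apart from Gm7030 at 0.92 and 4930452G13Rik at -1.09, the neighbours lie between -0.40 and 0.48, and the members between 1.98 and 3.74.

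The repeated word marked other transcripts as well. Of the 27 tested non-member genes that hold it, 5 (18.5%) were called higher in Dnmt1 CKO, against 0.845% of all symbols, and 0 were called lower, against 2.30%. Their median log2 fold change was 0.03, and 16 of the 27 lay above 0 (59.3%). The word lay on the gene's own strand in 12 of the 27, and all 5 called genes were among these 12 (41.7%). Among the 15 with the word on the opposite strand 0 were called by limma, 2 had an unadjusted p under 0.05, and 8 lay above 0. On the own strand 6 of 12 had an unadjusted p under 0.05. The difference between the strands was not tested, and the list was chosen after values had been seen.

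Zfp575, a zinc finger gene, had 2.07, 2.01 and 2.20 FPKM in Dnmt1 Control libraries and 4.32, 3.98 and 3.80 FPKM in those of Dnmt1 CKO (log2 fold change 0.91 ± 0.07, adjusted p = 0.0046). Il1f9, a cytokine of the interleukin-1 family, had 1.63, 1.35 and 1.32 FPKM in Dnmt1 Control libraries and 2.70, 2.88 and 2.54 FPKM in those of Dnmt1 CKO (0.88 ± 0.10, adjusted p = 0.014). Zfp706, a small zinc finger gene, had 39.0, 38.0 and 35.9 FPKM in Dnmt1 Control libraries and 47.5, 50.1 and 47.4 FPKM in those of Dnmt1 CKO (0.36 ± 0.04, adjusted p = 0.015). In each of these the groups did not overlap, and the word was followed by 131, 126 and 170 bases to the end of the transcript. Among the 27 genes, the Dnmt1 CKO libraries all lay above the controls in 5 and all below in 3. These shares stand against 6.38% and 14.4% of all rows tested.

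Cpne8, a copine that binds membranes in response to calcium, had a mean of 22.1 FPKM in the Dnmt1 controls and 33.1 FPKM in the CKO libraries (0.58, adjusted p = 0.077), and Hist4h4, a histone H4 gene, 1.007 and 1.69 FPKM (0.71, adjusted p = 0.096). Cpne8 and Hist4h4 lost their call when any library but Dnmt1 Control replicate 3 was left out (adjusted p = 0.13 to 0.27), which left 3 of the 5. Some of the 5 also match a member over longer stretches on the same strand. In Zfp575 and Zfp706, 175 and 170 of the 1295 words of 50 bases in Gm11127's transcript occur, Hist4h4 shares 111 words with Gm10845, and Il1f9 shares 6 with Gm19757. On the opposite strand Zfp706 and Zfp575 share 175 and 170 of the 1937 words of Gm4262. Other tested genes share as many and were not called. Trpc6, a cation channel, shares 181 words with Gm11127 and gave a log2 fold change of -0.08 (adjusted p = 0.83), and Sirt5, a mitochondrial deacylase, shares 179 with Gm19757 and gave 0.08 (0.66). Trpc6 also shares 156 words with Gm4262 on the opposite strand. Trpc6 and Sirt5 are named after their values were seen. Reads from shared stretches could have been counted for either gene, and their part in the values was not tested.

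In promoter windows, 34 genes share at least 1 word of 20 bases with the window of Gm19757, and 3 of them were tested. Of these 1 was called higher, against 0.845% of all symbols. This was AA388235, with 0.855, 0.943 and 1.09 FPKM in Dnmt1 Control libraries and 1.35, 1.48 and 1.54 FPKM in those of Dnmt1 CKO (log2 fold change 0.55, adjusted p = 0.076). The other 2, 4930481A15Rik and Eps8l1, gave log2 fold changes of 0.13 (adjusted p = 0.87) and -0.17 (0.93). The call of AA388235 was lost when any library but Dnmt1 Control replicate 3 was left out (adjusted p = 0.15 to 0.24). The window of Gm11127 shares such a word with 1 gene, Gm7030, and that of Psg23 with 10, of which only Psg28 was tested. Gm7030 was called higher and Psg28 was not, as described above. The windows of A430078G23Rik and Gm4262 share none. The windows of the 5 members held 9 (A430078G23Rik), 4 (Gm19757), 4 (Gm4262), 2 (Gm11127) and 2 (Psg23) CpGs, where the median of all windows was 7 and the quartiles 3 and 20.

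**Figure D5:**
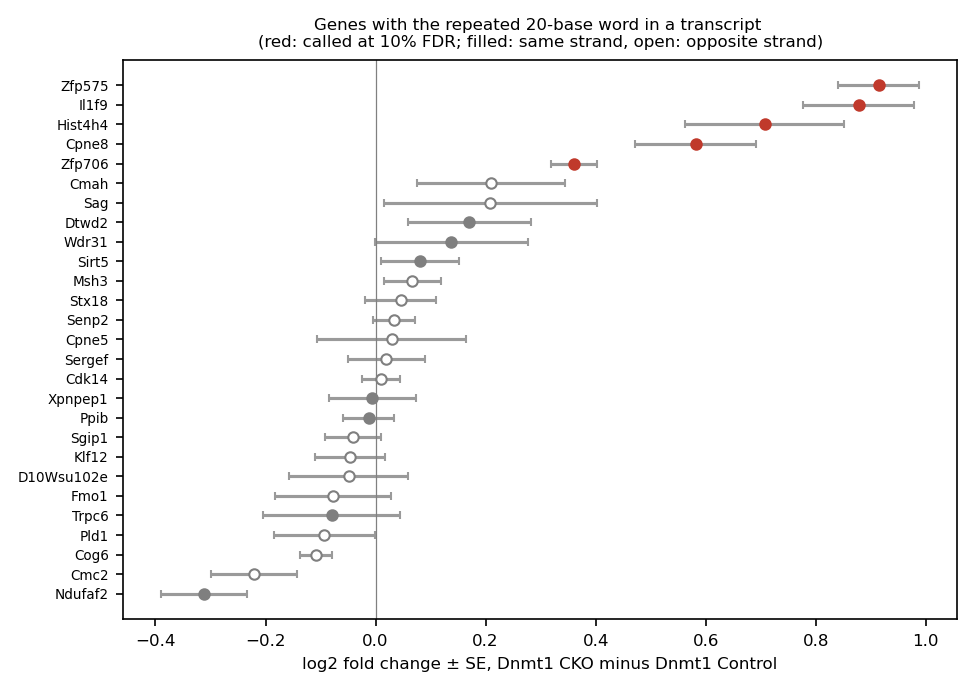
Log2 fold change ± SE in Dnmt1 CKO against Dnmt1 Control (horizontal axis) of the 27 tested non-member genes with the repeated word in an annotated transcript; red marks genes called at 10% FDR, filled points genes with the word on their own strand and open points those with it on the opposite strand. The 5 called genes, from 0.36 to 0.91, are all filled points.

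How much of a member's transcript is unique limits how well its reads can be placed. Words of 50 bases that also occur in another annotated gene made up 78.3% of Gm11127, 37.2% of Psg23, 33.6% of Gm10845, 12.4% of Gm4262, 6.63% of Gm19757 and 3.58% of A430078G23Rik. In Gm19757 the shared words lay in exon 1, where 67.8% were shared, and in Gm10845, Gm4262 and A430078G23Rik they lay in the last exon. Gm11127 and Gm4262 share 171 words on opposite strands with each other. Psg21, which shares 614 words with Psg23, and Gm6034, which shares 521 with Gm11127 on the opposite strand, were near 0 in the Dnmt1 line. How the authors' software split reads among copies is not given.

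Other genes of the members' families were followed from lists. Of 18 other class I genes and partners tested, 5 were called higher and 0 lower in Dnmt1 CKO, against 0.845% and 2.30% of all symbols, with a median log2 fold change of 0.30. H2-K1 and H2-D1, the classical class I heavy chains, changed by 0.73 (adjusted p = 0.025) and 0.58 (0.032). B2m, their light chain, changed by 0.35 (0.0049; adjusted p = 0.17 when all 12 libraries entered 1 model), Tap1, a subunit of the peptide transporter, by 0.57 (0.094), and Gm7030 is described above. Without Dnmt1 Control replicate 2 the calls of H2-K1 (adjusted p = 0.12), H2-D1 (0.11) and Tap1 (0.27) were lost. H2-D1 was also lost without Dnmt1 CKO replicate 2 (0.10) or 3 (0.13), and Tap1 without any library but Dnmt1 Control replicate 1 (0.16 to 0.27).

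Of 28 other pregnancy-specific glycoprotein and Ceacam genes in the table, 20 stayed below 0.1 FPKM in every library, 2 could be tested and 0 were called by limma, with 0 at an unadjusted p under 0.05. Psg29, below the minimum level for the test and named after its values were seen, had 0.442, 0.4996 and 0.455 FPKM in Dnmt1 CKO. Its mean in Dnmt1 Control was 0.0914 FPKM, and its highest value in the 9 other libraries was 0.133 FPKM, so the groups did not overlap. Among the rows tested, the Dnmt1 CKO libraries all lay above the Dnmt1 controls in 6.38%. The 5 defining placental genes had a summed level of at most 0.240 FPKM in any library, and 3 of them were listed at 0 throughout.

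In the repeated Ccl21, Ccl27 and Il11ra cluster of chromosome 4, 4 genes were tested and Ccl19, a chemokine of lymphoid tissue, was called higher (1.16, adjusted p = 0.067), a call that was lost when any library but Dnmt1 CKO replicate 3 was left out (adjusted p = 0.11 to 0.23). Of 24 germline genes that promoter methylation is known to silence, 5 were tested and 0 called by limma, with 1 at an unadjusted p under 0.05. The summed level of all 24 was 9.39 to 10.9 FPKM in Dnmt1 CKO and 5.89 to 6.85 FPKM in Dnmt1 Control. In Dnmt3a Control it was 6.58 to 8.02 FPKM and in Dnmt3a CKO 6.78 to 9.38 FPKM. Such sums rest mostly on the genes with the highest levels and do not show a change across the list. The highest single value was 3.1 FPKM, and 5 of the 24 stayed below 0.1 FPKM in every library. Of 17 genes of the DNA methylation machinery tested 0 were called and 1 had an unadjusted p under 0.05.

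Dnmt1 itself had 10.6, 10.2 and 9.78 FPKM in Dnmt1 Control libraries and 7.26, 9.11 and 9.09 FPKM in those of Dnmt1 CKO (log2 fold change -0.27, adjusted p = 0.29), so all CKO libraries lay below the controls, as in 14.4% of all rows, but the difference was not called. The test of whether the CKO effect differed between the lines called 2.12% of symbols. Olig1, the locus of the cre allele, fell by 1.19 on the log2 scale in Dnmt1 CKO (adjusted p = 0.0043). In Dnmt3a CKO Olig1 changed by -0.49 (adjusted p = 0.66) and was not called. Its Dnmt3a CKO libraries (30.6, 38.8 and 32.2 FPKM) all lay below their controls (48.4, 49.8 and 44.1 FPKM), as in 5.43% of all rows. RNA levels of cell type markers also moved with the Dnmt1 CKO group. All 9 markers of myelinating oligodendrocytes were called lower, with a summed level of 549 to 640 FPKM against 1864 to 2171 FPKM in Dnmt1 Control, and 4 of 5 progenitor markers were lower. Of 5 astrocyte markers only Gfap was called higher (0.45, adjusted p = 0.0065) and of 6 microglia markers only C1qa (0.34, adjusted p = 0.013). In these lists 3 and 1 markers had an unadjusted p under 0.05. The median log2 fold changes of the lists were only 0.02 and 0.04. None of the 5 neuron, 4 endothelium, 4 choroid plexus and 4 blood markers was called, and at an unadjusted p under 0.05 there were 0, 1, 0 and 3. The 6 lymphocyte markers summed to 0.820 to 0.833 FPKM in Dnmt1 CKO and 0.821 to 0.945 FPKM in Dnmt1 Control, and the 5 testis germ cell markers to at most 0.515 FPKM in any library. The part of these marker levels in the members' levels was not tested.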

How the data were processed

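Cortex RNA of 12 mice was sequenced on an Illumina instrument from TruSeq RNA libraries. The authors aligned reads to mm10 and used TopHat and Cufflinks methods, and the deposited unit is FPKM for each gene symbol. Tool versions, the gene annotation and the treatment of reads with several matches are not given in the sources used here, nor is the number of reads behind a value, so no counting error was computed.

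Of 23850 deposited rows, 302 exact duplicates were removed. Those averaging 0.5 FPKM or more over the 12 libraries (14115 rows, 14075 symbols) were tested on log2(FPKM + 0.1) with limma 3.58.1 in R 4.3.3 (lmFit, eBayes with trend), two-sided, with Benjamini-Hochberg adjustment over all rows and a threshold of 10% FDR. Each comparison used its own 6 libraries, and the difference between the lines was an interaction over 12. A symbol counted once when any of its rows passed. Fold changes on this scale understate those of low genes. A ± after a log2 fold change is its SE and after an FPKM value the SD of 3 libraries. P-values measure the spread between these mice. The members and lists were chosen with earlier results of these data known. Genes were named by a rule: members, targeted loci, nearest and called neighbours within 200 kb, the 5 symbols just outside the selection, the 5 most similar, and called genes of the lists. The 20-base word of Gm19757, the genes that hold it and the use of Xist to tell the sexes apart were chosen after values were seen. Positions and transcripts are from GENCODE M21 (GRCm38, the assembly of mm10) and windows from RefSeq. Python 3.11.15 with pandas 2.3.3, numpy 2.4.6 and matplotlib 3.10.9 was used, and the fit was tested on simulated data. The alternatives were a pseudocount of 1 or 0.01, other minimum levels, eBayes settings, scalings, summed rows, a replicate block, 1 model of 12 libraries, a 5% FDR and each library left out. The genes of 1 further list are not reported here.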

Additional observations from a re-analysis of the deposited data

Results flagged for a closer look

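For 5 of the genes examined one by one, the CKO effect differed between the Dnmt1 and Dnmt3a lines when the difference itself was tested (limma interaction over 12 libraries, at 10% FDR, where 2.12% of 14075 symbols were called). The values are log2 effects in the Dnmt1 line minus those in the Dnmt3a line. For genes with the repeated word in a transcript they were 0.84 ± 0.14 SE for Zfp575 (adjusted p = 0.013) and 0.35 ± 0.06 for Zfp706 (0.019), and for AA388235, whose promoter window shares a 20-base word with that of Gm19757, 0.80 ± 0.16 (0.034). In the Dnmt3a line the log2 fold changes of these 3 genes were 0.07, 0.02 and -0.25, none past the threshold. For H2-Q4, a class I gene, the difference was 0.51 ± 0.11 (adjusted p = 0.051). In the main fit H2-Q4 was called in neither line, with a log2 fold change of 0.35 in Dnmt1 CKO (adjusted p = 0.17) and -0.16 in Dnmt3a CKO (0.66). In Dnmt1 CKO it passed in 3 of 18 other fits, with a lowest adjusted p of 0.037. Its Dnmt1 Control level was -0.27 on the log2 scale relative to Dnmt3a Control (0.62). Olig1, which carries the cre allele in both lines, gave -0.70 ± 0.14 (0.032). Its log2 fold changes were -1.19 in Dnmt1 CKO and -0.49 in Dnmt3a CKO. The members' own differences between the lines were used in choosing them and were not tested.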

How the results depend on the processing

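The members' differences between Dnmt1 CKO and Dnmt1 Control, which carry no test, kept their direction under every alternative run. The rule largely fixed this direction, since it put every Dnmt1 CKO library more than 3 times above the 9 others. With a pseudocount of 1 the fitted log2 differences in Dnmt1 CKO moved to 2.98 for Gm4262, 3.20 for Gm11127, 2.71 for Psg23 and 2.26 for A430078G23Rik. In Dnmt3a CKO, 2 symbols were called, against 20 with no filter, 8 with only the libraries that had Y-linked transcripts, 2 to 5 with 1 library left out, and 1 with a pseudocount of 1, a minimum of 1 FPKM, quantile normalization, the replicate block, 1 model of 12 libraries or an FDR of 5%. Between the control lines 1 was called, against 8 with no filter, 6 with robust eBayes, 9 with only the libraries that had Y-linked transcripts, 1 to 4 with 1 library left out, and 0 with a pseudocount of 1, the replicate block or 1 model of 12 libraries. In Dnmt1 CKO 443 were called, against 262 at an FDR of 5% and 198 to 340 with 1 library left out, where those without Dnmt1 Control replicate 2 (205) or Dnmt1 CKO replicates 1 (198), 2 (265) and 3 (215) were more than 1.5 times fewer. Of the genes with the repeated word 5 were called higher, 3 at an FDR of 5% or with no filter, and 3 to 5 with 1 library left out. Called lower were 0 in the main fit, 1 with robust eBayes and 1 with no filter. The cause of these changes was not tested.

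The same replicate numbers did not pair the samples. Samples correlated best with their own number in 0 of 6, 2 of 6 and 1 of 6 cases in the 3 comparisons. With the replicate block 161 symbols were called in Dnmt1 CKO, and Gm7030, 4930452G13Rik, H2-K1, H2-D1, Tap1, Ccl19, Hist4h4 and AA388235 did not pass.

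Of 976 alternatives for single genes, 875 kept their result, 60 lost the call, 6 gained it and 4 moved. The other 31 changed sign, all of them for differences that were not called. A kept result has the same direction and side of the threshold. For the members in Dnmt1 CKO, which carry no test, it has the same direction and a shift smaller than the larger group SD. Moved means a larger shift in the same direction. With 1 library left out, the differences between the control lines were -0.15 to 0.049 for Gm10845, -0.15 to 0.076 for Gm4262, -0.068 to 0.049 for Gm11127, -0.15 to 0.018 and -0.14 to 0.033 for the rows of 4933409K07Rik, and -0.10 to 0.15 for A430078G23Rik. With a pseudocount of 1 that of Gm4262 was 8.4e-05, and that of Gm11127 was -0.022 with median-ratio scaling, -0.010 with quantile normalization and -0.057 with only the libraries that had Y-linked transcripts. In Dnmt3a CKO the ranges were -0.22 to 0.044 for Gm4262, -0.16 to 0.12 for Gm11127, -0.18 to 0.027 and -0.17 to 0.041 for the rows of 4933409K07Rik, and -0.25 to 0.013 for A430078G23Rik. Among the neighbours in Dnmt1 CKO they were -0.040 to 0.048 for Snn (0.013 with median-ratio scaling), -0.13 to 0.020 for Rmi2, -0.12 to 0.41 for H2-T22, -0.25 to 0.32 for A930015D03Rik, -0.034 to 0.11 for Cntn4 and -0.028 to 0.24 for Olfm4. Depth behind each value is unknown, and 3 libraries a group set the width of the intervals.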
